A study of Mus musculus with 12 samples.

Results

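Expression of chemokines, small secreted proteins that guide leukocytes, and of their receptors was followed in primary mouse skin fibroblasts. They were wild type (WT) or knockout (KO) for NADPH oxidase 4 (Nox4), with and without TGF-β2. The genes were chosen by symbol, taking every gene of the count table named as a CC, CXC, CX3C or XC ligand (Ccl, Cxcl, Cx3cl1, Xcl1), a conventional receptor (Ccr, Cxcr, Cx3cr1) or an atypical receptor (Ackr). There were 60 such genes among the 21556 of the table, of which 38 encode ligands, 18 conventional receptors and 4 atypical receptors. The symbol rule itself uses no measured value.

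The fibroblasts were grown from abdominal skin of WT mice (C57BL/6) and of Nox4 KO mice (B6.129-Nox4tm1Kkr/J, a line that carries the targeted allele in every cell), which came from separate litters. All 4 groups shared the same culture steps, with plating in medium with 10% serum and 24 h of starvation before stimulation. Each genotype was sequenced as 3 control libraries and 3 libraries stimulated for 24 h with 10 ng/ml TGF-β2. The age of the mice and the duration of the control culture are not given in the sources used here. The labels call the 3 libraries of a group biological replicates without saying whether each came from another animal, so p-values measure only the spread between these libraries.

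Ligands of this family bind G protein-coupled receptors on leukocytes and draw the cells along a gradient of ligand. Ligands named CC or CXC after the spacing of their first cysteines divide the work, since CXC ligands with the ELR motif attract neutrophils through Cxcr2, the monocyte chemoattractants Ccl2 and Ccl7 act through Ccr2, and Ccl17 attracts T cells through Ccr4. Atypical receptors bind chemokines without G protein signalling and remove them, and dermal fibroblasts are a known source of chemokines in wounded and inflamed skin.

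Counts per library were between 35118344 and 43796260. Nox4 received 203 to 398 reads in WT control, 1314 to 2471 in WT with TGF-β2, 102 to 207 in Nox4 KO control and 782 to 1175 in Nox4 KO with TGF-β2. The control ranges of the genotypes overlapped, and after TGF-β2 every Nox4 KO library lay below every WT library without being free of Nox4 reads. Counts per gene do not show from which exons they came. The 8 fibroblast markers, such as Col1a1 and Dcn, summed to between 5048 and 7043 RPKM (reads per kilobase of merged exon, scaled to the counted reads of the library), and Pdgfra was among them and fell after TGF-β2 in both genotypes (log2 fold change -3.35 in WT and -2.98 in Nox4 KO). Markers of keratinocytes (0.520 to 0.936 RPKM in sum), B cells (0.0415 to 0.127), mast cells (0 to 0.0360) and neutrophils (0 to 0.137) were close to 0, and the mast cell genes Fcer1a, Mcpt4 and Tpsb2 and the neutrophil gene S100a9 had no read in any library. T and NK cell markers summed to between 0.533 and 3.48 RPKM, those of Langerhans and dendritic cells to between 0.925 and 2.44, of endothelial cells to between 1.68 and 5.38, of lymphatic endothelium to between 0.972 and 2.41, and of Schwann cells and melanocytes to between 0.629 and 1.29. The 15 myeloid markers were the exception, with 10 of them at 1 RPKM or more in some library and none at 0 throughout, and their sum was 58.9, 32.6 and 161.8 RPKM in WT control, 46.9, 28.9 and 117.6 in WT with TGF-β2, 125.3, 44.1 and 25.9 in Nox4 KO control and 93.1, 33.0 and 17.9 in Nox4 KO with TGF-β2. Replicate 3 of WT and replicate 1 of Nox4 KO thus had the highest sums in both conditions. In bulk libraries fewer cells of a type and less RNA per cell cannot be told apart.

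Few genes of the family were expressed. No read fell on 11 of the 60 genes in any library, among them Ccr2, the receptor of Ccl2 and Ccl7, Ccl19 and both copies of Ccl21 in the annotation. A count of 0 allows up to 3 reads per library, which covers counting error only. Another 19 genes had at most 9 reads in every library. Of the other 30, 15 reached a mean of 1 RPKM in at least 1 group of a comparison and were tested, made up of 12 ligands and 3 receptors (Cxcr4, Cxcr6 and Ackr3). In WT control, Ccl7, Cxcl14, Ccl2 and Cxcl12 held between 86.8% and 89.6% of the summed RPKM of the family, and the sum was between 719 and 1088 RPKM. After TGF-β2 the sum in WT was between 439 and 571 RPKM, below every control library, and the same 4 genes held 74.1% to 80.3% of it. In Nox4 KO the sum was between 572 and 774 RPKM in control and between 308 and 397 with TGF-β2, and the 4 genes held 87.1% to 89.5% and 63.6% to 84.0%. Cx3cl1 held 0.717% to 1.47% of the sum in WT control and 6.33% to 10.6% after TGF-β2, and in Nox4 KO its share was 0.628% to 1.79% and 5.65% to 19.1%.

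**Figure D1:**
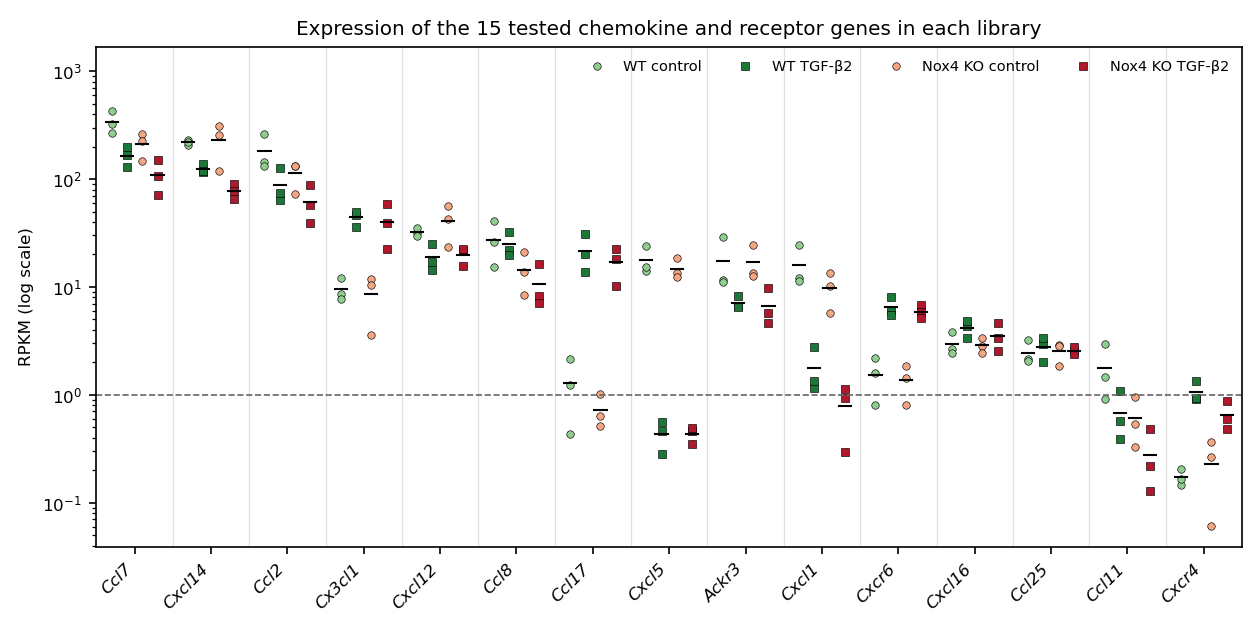
RPKM (log scale) of the 15 tested chemokine and receptor genes in each of the 12 libraries, ordered by their highest group mean, with points for libraries, short bars for group means and a dashed line at 1 RPKM. Ccl7, Cxcl14 and Ccl2 stood highest in every group, and the stimulated libraries of Cxcl5 lay between 0.280 and 0.555 RPKM in both genotypes.

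The question of the TGF-β2 comparisons was which genes the stimulation changed, and a call needed both a 2-fold change and an adjusted p under 0.05 (edgeR's quasi-likelihood test, Benjamini-Hochberg). The neutrophil ligands Cxcl5 and Cxcl1 fell in both genotypes, the neighbouring genes Ccl17 and Cx3cl1 rose in both, the receptor Cxcr6 rose in both, and Cxcr4 rose in WT. In WT, 4 of the 15 tested members were called higher, where 2.62% of the 10743 genes tested were, and 3 were called lower, where 5.09% were. In Nox4 KO, 3 of 13 were called higher (2.22% of 10809 genes) and 4 lower (4.58%). At any fold, 4 members rose and 5 fell in WT (10.4% and 12.2% of genes), and 3 rose and 4 fell in Nox4 KO (15.1% and 14.9%). The median log2 fold change of the tested members was -0.75 in WT and -0.79 in Nox4 KO, against 0.00 and -0.01 for all genes tested. These counts and medians describe the members that passed the filter on RPKM, which Cxcl5, Cxcr4 and Ccl11 passed in WT, and Cxcl5, Cxcl1 and Ccl17 in Nox4 KO, through the group where they were higher.

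Promoters are shown for 4 of the 5 members called in both genotypes in the same direction. They span 250 bases before to 50 after the start of transcription in RefSeq on GRCm38.p6, and a match to the NF-κB consensus is in capitals. Of the 60 members, 45 had an entry in the RefSeq promoter table, with 52 promoters, and of the 15 tested 10 had one. Cxcl5, Ccl2, Ccl7, Ccl11 and Cxcl16 had none.
Cxcl1 (chr5:90890995-90891294, plus strand): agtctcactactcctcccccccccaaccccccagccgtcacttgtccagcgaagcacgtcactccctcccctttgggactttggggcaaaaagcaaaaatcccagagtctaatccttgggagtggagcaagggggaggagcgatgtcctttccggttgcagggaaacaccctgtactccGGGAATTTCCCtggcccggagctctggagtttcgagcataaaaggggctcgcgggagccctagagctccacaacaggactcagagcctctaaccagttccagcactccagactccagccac
Ccl17 (chr8:94810203-94810502, plus strand): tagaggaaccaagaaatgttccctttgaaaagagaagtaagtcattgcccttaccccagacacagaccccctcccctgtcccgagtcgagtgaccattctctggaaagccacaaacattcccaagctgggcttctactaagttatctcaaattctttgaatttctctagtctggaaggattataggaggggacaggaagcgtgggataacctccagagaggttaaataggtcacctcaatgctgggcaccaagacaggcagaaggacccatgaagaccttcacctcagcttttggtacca
Cx3cl1 (chr8:94771930-94772229, plus strand): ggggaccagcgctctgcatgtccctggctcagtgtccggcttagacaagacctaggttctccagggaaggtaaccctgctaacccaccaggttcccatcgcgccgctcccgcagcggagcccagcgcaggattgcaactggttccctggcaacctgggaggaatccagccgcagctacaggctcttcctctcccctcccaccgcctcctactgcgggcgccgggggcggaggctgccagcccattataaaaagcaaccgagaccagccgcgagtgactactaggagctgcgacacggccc
Cxcr6 (chr9:123806227-123806526, plus strand): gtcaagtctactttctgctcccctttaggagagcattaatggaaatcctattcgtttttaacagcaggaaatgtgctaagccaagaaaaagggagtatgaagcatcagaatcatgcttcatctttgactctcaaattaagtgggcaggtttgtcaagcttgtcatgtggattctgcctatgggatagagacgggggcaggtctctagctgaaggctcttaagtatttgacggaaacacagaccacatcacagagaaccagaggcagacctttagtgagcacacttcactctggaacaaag

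Both strands were searched for the NF-κB consensus, the core of the interferon-stimulated response element (GAAANNGAA) and the palindromic SMAD element (GTCTAGAC). The NF-κB consensus was found in 10 of the 52 member promoters (19.2%), against 4.51% of all 32851 promoters of the same length, and the 10 were those of Cxcl1, Cxcl2, Cxcl3, Cxcl10, Ccl9, Ccl20, Ccl27a, Ccr3, Ccr6 and Ackr2. Among the 11 promoters of tested members only that of Cxcl1 held it, as 2 matches shifted by 1 base, from 71 to 62 bases before the start site on the plus strand and from 70 to 61 on the minus strand, and the capitals cover both. The interferon core was found in 8 member promoters (15.4%, against 8.56% of all), of which Cxcl14 was the one tested gene, and the SMAD element in 0 of 52, against 0.213% of all. These are letters in a window, with no measurement of binding.

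Cxcl5 (ENSMUSG00000029371, chromosome 5, 90759360 to 90761624, plus strand of GRCm38), an ELR CXC ligand that attracts neutrophils, had the largest fall in log2 fold change of the 10743 genes tested in WT. Its level was 14.0, 15.1 and 24.2 RPKM in the 3 WT control libraries and 0.280, 0.555 and 0.461 after TGF-β2. In Nox4 KO it was 18.4, 13.4 and 12.3 RPKM in control and 0.459, 0.348 and 0.497 after TGF-β2. Every stimulated library lay far below every control library. The log2 fold change was -5.32 ± 0.32 (SE, adjusted p = 0.000383, edgeR's quasi-likelihood test), a 39.9-fold fall, in WT and -4.99 ± 0.24 (adjusted p = 0.000857), a 31.8-fold fall, in Nox4 KO. The stimulated values rest on 18 to 33 reads per library.

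Cxcl1 (ENSMUSG00000029380, chromosome 5, 90891241 to 90893115, plus strand), whose promoter is printed above, also attracts neutrophils through Cxcr2. In WT it stood at 12.1, 11.2 and 24.5 RPKM in control and at 1.16, 1.34 and 2.76 after TGF-β2. In Nox4 KO control it stood at 5.76, 10.2 and 13.6 RPKM, and after TGF-β2 at 0.293, 0.934 and 1.12. The groups did not overlap in either genotype. The log2 fold change was -3.14 ± 0.45 in WT (SE, adjusted p = 0.00462) and -3.56 ± 0.54 in Nox4 KO (adjusted p = 0.00751). Between both genes on chromosome 5 lie Cxcl3 and Cxcl15, and Cxcl2 follows 10756 bases after Cxcl1. Cxcl3, a further neutrophil ligand, had 14, 16 and 7 reads in WT control against 5, 7 and 0 with TGF-β2, and 5, 11 and 8 reads in Nox4 KO control against 1, 0 and 0. Too few reads kept it from the test. With no filter on low values edgeR's quasi-likelihood test called it lower in Nox4 KO (adjusted p = 0.0215) and not in WT (adjusted p = 0.233). Cxcl2 had 0 to 22 reads with overlapping groups, and Cxcl15 had at most 3. Cxcr2, the receptor of these ligands, had at most 2 reads in any library, and Cxcr1 at most 1.

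The CC ligands Ccl2, Ccl7, Ccl11, Ccl12 and Ccl8 lie in this order on the plus strand of chromosome 11 (GRCm38). Of these, Ccl2 and Ccl7 attract monocytes and Ccl11 eosinophils. Ccl7 (82045712 to 82047525) had the highest mean level of the family in WT, with 321, 269 and 430 RPKM in control and 129, 166 and 199 after TGF-β2, and no overlap. In Nox4 KO it was 147, 259 and 224 RPKM in control and 70.6, 106 and 151 after TGF-β2, where 1 stimulated library reached the lowest control. It fell 2.01-fold (log2 SE 0.21) in WT (adjusted p = 0.0156), at the fold limit, and had a log2 fold change of -0.86 ± 0.32 in Nox4 KO (adjusted p = 0.0897, edgeR's quasi-likelihood test). Leaving out a library ended the WT call for control replicate 3 (-0.81, adjusted p = 0.0502), for stimulated replicate 1 (-0.88, adjusted p = 0.0553) and for stimulated replicate 2, which put it just under the fold limit. Without stimulated replicate 3, Ccl7 was called in Nox4 KO (-1.16, adjusted p = 0.0383).

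Ccl2 (82035571 to 82037453), the main monocyte chemoattractant, moved alongside, from 145, 133 and 263 RPKM to 64.1, 74.1 and 126 in WT and from 72.5, 133 and 133 to 38.8, 57.0 and 88.9 in Nox4 KO. The groups did not overlap in WT and overlapped in Nox4 KO. Its log2 fold change missed the threshold in both genotypes, at -0.99 ± 0.33 (adjusted p = 0.0763) and -0.79 ± 0.36 (adjusted p = 0.142). Leaving out stimulated replicate 3 gave a call in either genotype, at -1.34 (adjusted p = 0.0267) in WT and -1.14 (adjusted p = 0.0491) in Nox4 KO. Over all alternatives with edgeR or DESeq2, the adjusted p of Ccl2 in WT ranged from 0.00181 to 0.231. Same-numbered Nox4 KO libraries pair, and with the replicate number as a block the test in Nox4 KO passed at under 2-fold for Ccl2 (-0.81, adjusted p = 0.00453), Ccl7 (-0.88, adjusted p = 0.00510), Cxcl12 (-0.88, adjusted p = 0.00725) and Cxcl16 (0.34, adjusted p = 0.0360). No call at 2-fold changed with this block in Nox4 KO.

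Ccl8 (82115185 to 82116799) kept overlapping groups, with 25.9, 15.4 and 41.1 RPKM in WT control and 22.0, 19.9 and 32.3 after TGF-β2, and with 13.9, 21.2 and 8.34 in Nox4 KO control and 8.16, 16.4 and 7.10 after TGF-β2. Its log2 fold change was -0.10 (95% interval -0.94 to 0.74) in WT and -0.37 (-1.49 to 0.74) in Nox4 KO. Ccl11 (eotaxin, 82057823 to 82062955) was at 1.45, 0.921 and 2.96 RPKM in WT control and 0.567, 0.392 and 1.09 after TGF-β2, with a log2 fold change of -1.33 ± 0.53 (adjusted p = 0.118). In Nox4 KO its means stayed under 1 RPKM and it was not tested. Ccl12 had at most 5 reads in any library. Among the CC receptors, Ccr2 and Ccr8 had no read in any library, Ccr1 had at most 9 and Ccr3 at most 6. Replicate 3 of WT control, the library with the highest myeloid sum, was also the highest WT control library for Ccl2, Ccl7, Ccl8 and Ccl11, while in Nox4 KO replicate 1, with the highest myeloid sum of its genotype, was the lowest control library for Ccl2 and Ccl7, and the part of myeloid cells in these values was not tested.

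Ccl17 and Cx3cl1 lie side by side on chromosome 8 with the start of Ccl17 28026 bases beyond the end of Cx3cl1. Ccl17 (ENSMUSG00000031780, 94810453 to 94812036, plus strand), the ligand of Ccr4, rose from 2.16, 1.22 and 0.434 RPKM to between 13.8 and 30.7 in WT. In Nox4 KO it rose from 0.508, 1.03 and 0.642 RPKM to 22.5, 18.0 and 10.1. Stimulated libraries lay well above every control library in both genotypes. The rise was 17.3-fold in WT (log2 4.11 ± 0.57, adjusted p = 0.00437) and 24.3-fold in Nox4 KO (log2 4.60 ± 0.43, adjusted p = 0.00267, edgeR's quasi-likelihood test), which ranked 8 of 10743 and 5 of 10809 tested genes by rise. Ccr4 had at most 2 reads in any library. Ccl22, the other ligand of Ccr4 and the next member upstream of Cx3cl1, had at most 1.

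Cx3cl1 (ENSMUSG00000031778, 94772009 to 94782427, plus strand), the membrane-anchored fractalkine, stood at 12.0, 8.63 and 7.80 RPKM in WT control and at 46.5, 49.4 and 36.1 after TGF-β2. In Nox4 KO the control libraries held 11.9, 10.5 and 3.59 RPKM and the stimulated ones 58.9, 39.0 and 22.4. Groups did not overlap in either genotype, and the spread within Nox4 KO was the wider one. The log2 fold change was 2.25 ± 0.21 in WT (4.76-fold, adjusted p = 0.00120) and 2.29 ± 0.55 in Nox4 KO (4.90-fold, adjusted p = 0.0261). In Nox4 KO the call was lost without control replicate 1, control replicate 2, stimulated replicate 1 or stimulated replicate 2, at adjusted p = 0.0558, 0.0706, 0.0699 and 0.0812, with log2 fold changes from 1.91 to 2.59. Its receptor Cx3cr1 had 1 to 23 reads per library, and its annotated span overlaps Wdr48 and Csrnp1, among others.

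Cxcl14 and Cxcl12 are homeostatic CXC ligands made without inflammation, Cxcl12 for Cxcr4 and Ackr3. Cxcl14 (ENSMUSG00000021508, chromosome 13) was at 228, 208 and 221 RPKM in WT control and at 115, 137 and 119 after TGF-β2, and in Nox4 KO at 312, 258 and 118 in control and 65.3, 90.6 and 77.3 after TGF-β2. Both genotypes separated stimulated from control libraries, and control replicate 3 of Nox4 KO lay far under the other two. Its log2 fold change was -0.79 ± 0.10 (adjusted p = 0.00290) in WT, a fall under the 2-fold limit, and -1.48 ± 0.37 (adjusted p = 0.0294) in Nox4 KO, where it was called. The Nox4 KO call was lost when control replicate 1 or 2 or stimulated replicate 1, 2 or 3 was left out, with log2 fold changes from -1.61 to -1.19 and adjusted p from 0.0607 to 0.0897. Cxcl12 (ENSMUSG00000061353, chromosome 6) was at 31.9, 34.9 and 29.8 RPKM in WT control and 16.9, 25.1 and 14.3 after TGF-β2, and at 55.9, 42.7 and 23.2 in Nox4 KO control and 21.4, 22.3 and 15.8 after TGF-β2. Stimulated libraries were lower without overlap in both genotypes. It fell by 0.75 ± 0.20 on the log2 scale in WT (adjusted p = 0.0410) and had a log2 fold change of -0.95 ± 0.33 in Nox4 KO (adjusted p = 0.0767). The adjusted p in WT lay above 0.05 without control replicate 1, 2 or 3 or stimulated replicate 1 or 3, reaching 0.116 without control replicate 2.

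Cxcl16, the transmembrane ligand of Cxcr6, and Ccl25, the ligand of Ccr9, had low levels and did not pass the test in either genotype. The WT libraries of Cxcl16 spanned 2.44 to 3.83 RPKM without and 3.39 to 4.78 with TGF-β2 (log2 fold change 0.53, 95% interval 0.04 to 1.01, adjusted p = 0.109). Its Nox4 KO libraries spanned 2.45 to 3.39 RPKM without and 2.54 to 4.60 with TGF-β2 (0.36, -0.24 to 0.97, adjusted p = 0.308). Ccl25 ranged from 1.87 to 3.37 RPKM over all libraries, with log2 fold changes of 0.23 (-0.40 to 0.86) in WT and 0.11 (-0.38 to 0.60) in Nox4 KO. Stimulated and control libraries overlapped for both genes in both genotypes. Cxcl16 shares 552 bases of span with Zmynd15 and Ccl25 204 bases with Elavl1, each on the other strand, and since the sources do not state whether counting used strand, reads in such overlaps cannot be assigned with certainty.

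**Figure D2:**
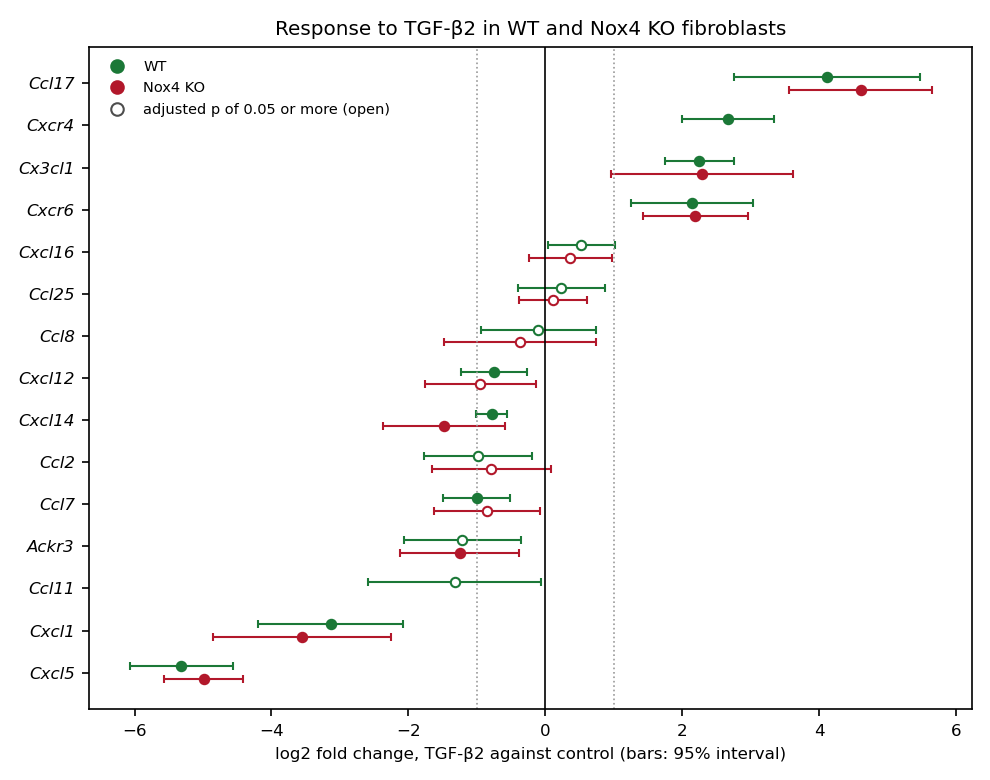
Log2 fold change of TGF-β2 against control for the 15 tested genes in WT and for the 13 tested in Nox4 KO, with 95% intervals, filled points at an adjusted p under 0.05 in edgeR's quasi-likelihood test and dotted lines at 2-fold. Cxcl5 lies at -5.32 and -4.99 and Ccl17 at 4.11 and 4.60, and Cxcr4 and Ccl11 have no Nox4 KO point because they were not tested there.

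Among the receptors, Cxcr6 (ENSMUSG00000048521, chromosome 9, 123806475 to 123811760, plus strand), which binds Cxcl16, was at 1.59, 2.17 and 0.796 RPKM in WT control and at 6.09, 8.11 and 5.45 after TGF-β2. In Nox4 KO it was at 1.43, 1.84 and 0.812 RPKM in control and at 6.74, 5.84 and 5.11 after TGF-β2. The groups were separate in both genotypes. It rose 4.40-fold in WT (log2 2.14 ± 0.37, adjusted p = 0.00921) and 4.57-fold in Nox4 KO (log2 2.19 ± 0.31, adjusted p = 0.00664). Cxcr6 lies wholly within the span of Fyco1 on the other strand, whose mean went from 9.61 to 7.19 RPKM in WT and from 8.13 to 8.35 in Nox4 KO.

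Cxcr4 (ENSMUSG00000045382, chromosome 1, 128588199 to 128592293, minus strand), the receptor of Cxcl12, was at 0.205, 0.145 and 0.165 RPKM in WT control and at 0.909, 0.938 and 1.35 after TGF-β2. The Nox4 KO libraries held 0.361, 0.265 and 0.0609 RPKM in control and 0.877, 0.594 and 0.485 after TGF-β2. Stimulated libraries were the higher ones in both genotypes, and those of WT all lay above those of Nox4 KO. In WT it rose by 2.67 ± 0.28 on the log2 scale (adjusted p = 0.00176), a 6.35-fold rise at a low level. In Nox4 KO it stayed under the RPKM limit, and with edgeR's own expression filter its log2 fold change there was 1.60 ± 0.59 (adjusted p = 0.0872). Without stimulated WT replicate 3 it fell under the limit in WT as well and was not tested.

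The atypical receptor Ackr3 (ENSMUSG00000044337, chromosome 1), which takes up Cxcl12, was at 11.7, 11.2 and 28.9 RPKM in WT control and at 6.70, 6.58 and 8.22 after TGF-β2, and at 13.5, 12.6 and 24.6 in Nox4 KO control and 4.64, 5.69 and 9.73 after TGF-β2. Replicate 3 stood far above the others in both control groups, and groups did not overlap. It was called in Nox4 KO (log2 fold change -1.25 ± 0.36, adjusted p = 0.0440) and missed the threshold in WT at nearly the same size (-1.21 ± 0.36, adjusted p = 0.0534). Leaving out single libraries gave log2 fold changes from -1.42 to -0.63 in WT. The Nox4 KO call was lost without control replicate 1, 2 or 3 or stimulated replicate 1 or 2, with log2 fold changes from -1.41 to -0.90 and adjusted p from 0.0652 to 0.147. Ackr4, which removes Ccl19, Ccl21 and Ccl25, had 22, 43 and 58 reads in WT control and 6, 5 and 7 after TGF-β2, and 48, 34 and 147 in Nox4 KO control and 4, 9 and 26 after TGF-β2. Its means were below 1 RPKM, but with edgeR's own expression filter it was called lower in WT (log2 fold change -2.67 ± 0.40, adjusted p = 0.00526) and had a log2 fold change of -2.61 ± 0.84 in Nox4 KO (adjusted p = 0.0632). It lies within the span of Acad11 on the other strand, which had 5.39 and 4.59 RPKM in WT.

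The other members with 10 reads or more in some library stayed below the RPKM limit. The interferon-induced Cxcr3 ligand Cxcl10 had 10, 45 and 22 reads in WT control and 14, 3 and 7 after TGF-β2, with overlapping groups, and its partners Cxcl9 and Cxcl11 had at most 9 and 3. Ccl27a, the skin T cell chemokine, had 33 to 68 reads and Ccl28 13 to 67. Scaled to depth and length, the Nox4 KO libraries of Ccl27a were at 1.15, 0.852 and 0.782 RPKM in control and at 0.542, 0.502 and 0.736 after TGF-β2, without overlap, and with edgeR's own expression filter the adjusted p was 0.171. Its WT libraries overlapped, as did those of Ccl28 in both genotypes. Their receptor Ccr10 had 2 to 14 reads. Ccl27a has a near-identical copy, Ccl27b, which was listed at 0, and reads mapping to both were discarded. Ccl20 had 3 to 37 reads, Ccl5 0 to 23 and Ccl9 7 to 51.

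Ccl3, Ccl4 and Ccl6, which macrophages typically express, had their highest count of each group in the library with the highest myeloid sum, at few reads. Ccl3 had 4, 4 and 15 reads, Ccl4 2, 2 and 19 and Ccl6 6, 1 and 21 reads in WT control replicates 1 to 3, whose myeloid marker sums were 58.9, 32.6 and 161.8 RPKM. After TGF-β2, replicate 3 of WT held 6 reads each of Ccl3, Ccl4 and Ccl6, and the other replicates 0 or 1. In Nox4 KO control, Ccl3, Ccl4 and Ccl6 had their highest counts, 4, 7 and 11, in replicate 1, the library with the highest myeloid sum of that group. After TGF-β2, replicate 1 of Nox4 KO held 3, 2 and 9 reads of these genes, and the other replicates 0 to 2. The part of myeloid cells in these counts was not tested.

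**Figure D3:**
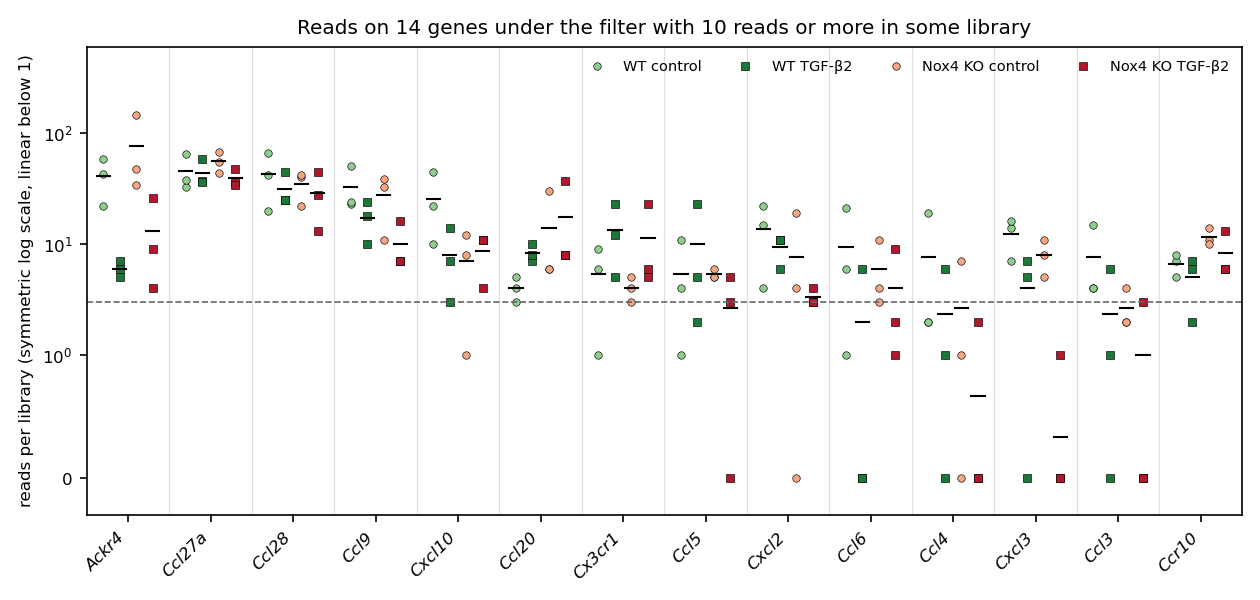
Reads per library (symmetric log scale, linear below 1) on 14 members that stayed under the RPKM limit and had 10 reads or more in some library, with points for libraries, short bars for group means and a dashed line at 3 reads, the most that a count of 0 allows. Ackr4 spans 22 to 58 reads in WT control and 5 to 7 with TGF-β2.

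For Nox4 KO against WT, the question was whether these genes differed between the genotypes in either condition. No member was called in control or after TGF-β2, among 14 and 13 tested, and the background was 0% of 10767 and 0% of 10439 genes. DESeq2 called 0 members in either condition as well, and of all genes 5 higher and 1 lower in each. The paper, with edgeR and a filter at 1 RPKM, reported a few genes that differed in both conditions, among them Ucp2 and Hddc3. That no member was called thus does not show that none differed. At an unadjusted p under 0.05, edgeR's quasi-likelihood test gave 2 members in control, where 5.54% of genes did, and 2 after TGF-β2, where 3.23% did, and these 4 were lower in Nox4 KO. The members tested here are not a fair sample for direction, since Ccl11 and Ccl17 in control and Cxcl1 and Cxcr4 after TGF-β2 passed the filter through the WT group alone.

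The 2 members in control were Ccl11 and Ccl7, both of the chromosome 11 cluster. Ccl11 was lower by a log2 difference of -1.56 ± 0.55 (95% interval -2.88 to -0.24, adjusted p = 0.828), with overlapping libraries. Ccl7 had a log2 difference of -0.73 ± 0.24 (-1.32 to -0.14, adjusted p = 0.828), and its 3 Nox4 KO control libraries lay below the 3 of WT. Their neighbours Ccl2 and Ccl8 had log2 differences of -0.71 (-1.49 to 0.07) and -0.94 (-2.02 to 0.14). The 2 members after TGF-β2 were Ccl8, at -1.21 ± 0.37 (-2.08 to -0.33, adjusted p = 0.838), and Cxcl14, at -0.65 ± 0.13 (-0.97 to -0.33, adjusted p = 0.838). Both had stimulated Nox4 KO libraries below those of WT without overlap, and DESeq2 gave Cxcl14 an adjusted p of 0.0203 at under 2-fold. The adjusted p of Cxcl14 ranged from 0.0203 to 0.999 over the alternatives. The myeloid sums of 25.9 to 125.3 RPKM in Nox4 KO control overlapped those of 32.6 to 161.8 in WT control. After TGF-β2 they were 17.9 to 93.1 RPKM in Nox4 KO and 28.9 to 117.6 in WT, and the part of myeloid cells in the differences was not tested.

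**Figure D4:**
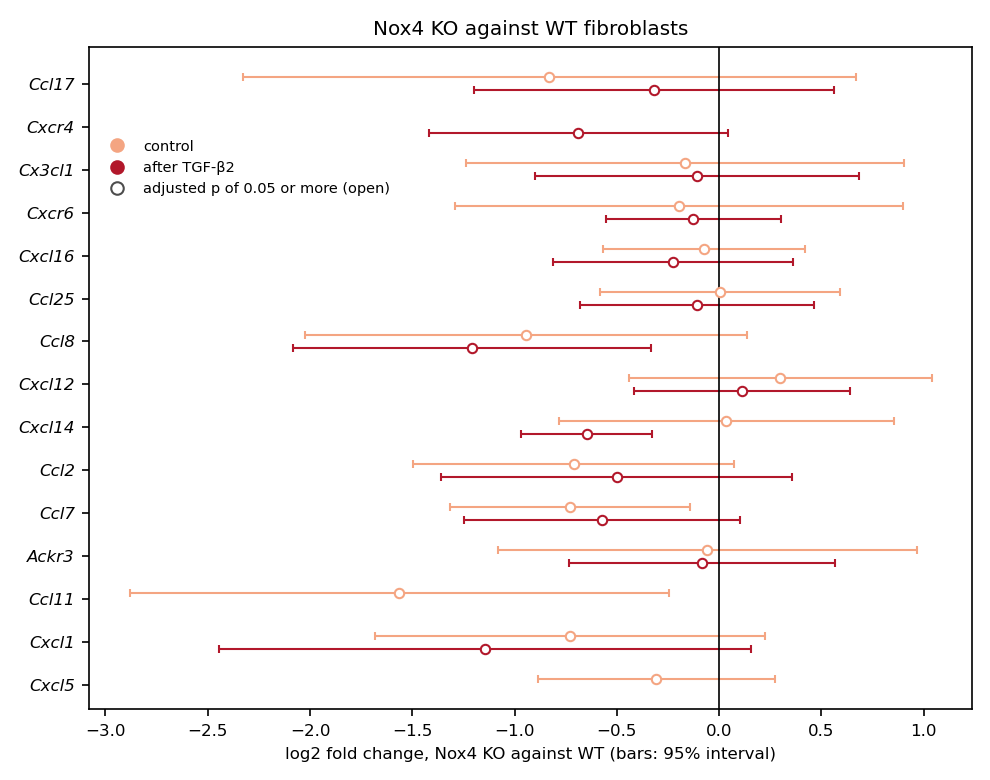
Log2 difference between Nox4 KO and WT for the tested genes, without and with TGF-β2, with 95% intervals and open points at an adjusted p of 0.05 or more in edgeR's quasi-likelihood test. No point is filled, and the intervals of Ccl7 and Ccl11 in control and of Ccl8 and Cxcl14 after TGF-β2 lie below 0.

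Whether the response to TGF-β2 differed between genotypes was tested by the interaction term over all 12 libraries. Of 15 members tested 0 were called, where 0% of 10890 genes were, and 0 had an unadjusted p under 0.05, where 2.68% of genes did. DESeq2 gave 0 members as well. The interaction was 0.35 (95% interval -0.53 to 1.22) for Cxcl5, -0.41 (-1.98 to 1.17) for Cxcl1, 0.51 (-1.12 to 2.13) for Ccl17, 0.06 (-1.27 to 1.39) for Cx3cl1 and 0.07 (-1.04 to 1.18) for Cxcr6. The responses named above were thus not shown to differ between WT and Nox4 KO, nor to be alike beyond these intervals. The interaction of Cxcr4 was -1.08 (-2.56 to 0.40, adjusted p = 0.854) and that of Cxcl14 -0.68 (-1.55 to 0.19, adjusted p = 0.854), so the calls in one genotype alone do not show a difference.

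Genes around the family were followed through lists. Of all genes tested, 2.62% were called higher and 5.09% lower at 2-fold in WT, and 2.22% and 4.58% in Nox4 KO. Of 10 related genes outside the symbol rule, 4 were tested, and Cmklr1, the chemerin receptor, was the one called, rising 3.72-fold in WT (adjusted p = 0.00158) and 4.91-fold in Nox4 KO (adjusted p = 0.0262). Of 25 genes of receptor signalling 15 were tested, and at any fold 2 were higher and 3 lower in WT, where 10.4% and 12.2% of all genes were, and 4 higher and 0 lower in Nox4 KO, where 15.1% and 14.9% were. The one called at 2-fold was Gng2, a G protein gamma subunit, in Nox4 KO (2.47-fold higher, adjusted p = 0.00522). Among 20 NF-κB genes, 19 were tested, and Bcl3, an atypical IκB protein, was called lower in both genotypes (log2 fold change -1.20, adjusted p = 0.00868 in WT and -1.80, adjusted p = 0.0110 in Nox4 KO), the only call of that list. Of 13 interferon factors, 12 were tested and 0 called at 2-fold, while at any fold edgeR's quasi-likelihood test gave 2 lower in WT (Jak1 and Jak2), where 12.2% of all genes were lower, and 4 lower in Nox4 KO (Jak1, Stat2, Tyk2 and Ifnar2), where 14.9% were. Of 15 enzymes and glycans that cut or hold chemokines 12 were tested. Mmp9, a gelatinase, was called higher in WT (11.8-fold, adjusted p = 0.000236) and Nox4 KO (14.1-fold, adjusted p = 0.00506), and the heparan sulfate carrier Sdc4 lower in WT (log2 fold change -1.25, adjusted p = 0.00582) and Nox4 KO (-1.52, adjusted p = 0.0156). Mmp14 was called higher in Nox4 KO (2.06-fold, adjusted p = 0.00776) and rose 1.90-fold in WT (adjusted p = 0.0140), under the fold limit. Also under that limit, edgeR's quasi-likelihood test gave Sdc3 a 1.81-fold rise per genotype (adjusted p = 0.00890 in WT, 0.00158 in Nox4 KO). Sdc1 fell by less than 2-fold (adjusted p = 0.0163 in WT, 0.0416 in Nox4 KO). Ctsb passed in Nox4 KO only (log2 fold change -0.49, adjusted p = 0.0226). At any fold, WT had 3 rises and 2 falls among the 12 (10.4% and 12.2% of all genes). Nox4 KO had 3 of each (15.1% and 14.9%). Each of these lists was chosen with the results known, and no gene of any list was among calls for Nox4 KO against WT or in the interaction, where edgeR called no gene of the table.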

How the data were processed

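RNA was sequenced from 12 libraries of primary mouse skin fibroblasts, 3 per group. The authors mapped single-end reads of total RNA libraries to GRCm38 with STAR 2.4, discarded reads with several locations and used featureCounts 1.4.6 to count those overlapping the merged exons of a gene's protein-coding isoforms (versions from the submitters' processing notes, which also list CASAVA 1.8.2), and deposited raw counts per gene. Multi-mapped reads being discarded lowers near-identical copies. Strand use in counting is not given in the sources used here.

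From these counts, RPKM was computed with GENCODE lengths. The members, lists and named genes were chosen with earlier results of these data known, by the symbol rule, and every tested member is named, untested ones from 10 reads, except 1 that is not reported here. Each comparison was fitted on its own 6 libraries with edgeR 4.0.16 in R 4.3.3 (quasi-likelihood test, TMM, Benjamini-Hochberg over genes with a mean of at least 1 RPKM in a compared group), the interaction on 12, and tested on simulated data. Standard errors came from the F statistic. DESeq2 1.42.0, other scalings, filters, a replicate block and leaving out each library were alternatives. Library totals over all genes were chosen as an alternative after seeing the data. In Nox4 KO, deviations of stimulated and control libraries of one number correlated at 0.772, 0.680 and 0.748, so these numbers pair samples, by this check alone. Replicates differed by more than sampling noise (chi-square per gene 15.1 to 154).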

Additional observations from a re-analysis of the deposited data

How the results depend on the processing

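Under the alternatives run, direction was followed only for fold changes with an adjusted p under 0.05 in some setting, with edgeR or DESeq2. None of these turned its direction. The other members' directions were not followed. In WT, 3 members called lower became 5 with a replicate block and 5 with no limit on the fold. In Nox4 KO, 4 members called lower ranged from 2 to 5 when single libraries were left out, with 2 without control replicate 1, control replicate 2, stimulated replicate 1 or stimulated replicate 2. Cxcl5, Cxcl1, Ccl17 and Cxcr6 in both genotypes, and Cx3cl1 and Cxcr4 in WT, kept their calls in every alternative in which they were tested. Ccl7 in WT, at the fold limit, fell below it with edgeR's own filter (-0.97), with no filter (-0.97) and with library totals over all genes (-0.99, chosen after seeing the data), and the number called lower was then 3, 4 and 2. Ackr3 in WT was called with DESeq2 (adjusted p = 0.00355), no filter (0.0465), all 12 libraries in the fit (0.0379) and the block (0.0151), and Ccl11 with the block (0.00706).

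Deviations of same-numbered WT control and stimulated libraries correlated at 0.0386, 0.430 and 0.519. The best match was the same number for replicates 2 and 3 and another for replicate 1. Whether these numbers pair samples in WT is thus not settled. Same-numbered libraries of WT and Nox4 KO correlated between -0.189 and 0.293, and the block gave 0 members called for Nox4 KO against WT. Scaling by library size alone moved the median of all genes in Nox4 KO from -0.01 to -0.10, and left the members called there at 3 higher and 4 lower. Members with fewer than 10 reads in every library were tested only with no filter on low values, where few reads limit the precision. Proteins were not analysed here.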
